A study of Arabidopsis thaliana with 12 samples.

Results

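The genes described here are the 300 nuclear genes of highest mean RNA polymerase II occupancy in mock-treated Arabidopsis thaliana seedlings, out of 33323 nuclear genes in the counts. They were chosen from the reads counted over the whole gene, scaled in each library to CPM (counts per 1e6 reads in nuclear genes) and averaged over the 6 mock libraries. The mock whole-gene values therefore chose the members, and they are given as a description without a test. Tests were made only on comparisons that use the induced libraries, since the study set polymerase occupancy in induced plants against that in plants without induction.

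The assay was ChIP-seq, which sequences the DNA that an antibody brings down with the protein on it. It was run on Columbia seedlings 10 days after sowing, with the antibodies a-S5P-RNAPII and a-S2P-RNAPII and 3 libraries in each of 4 groups. All plants carried tfIIs-1 (SALK_056755), an insertion in the gene of the transcript elongation factor TFIIS (AT2G38560). S5P induced plants were exposed for 24 h to 2 mM b-estradiol and carried GFP-TFIISmut in their labels, and S5P mock plants were given EtOH. S2P induced plants had the same estradiol exposure with GFP-TFIIS in their labels, and S2P mock plants were given EtOH. The labels of the mock libraries name no fusion protein. The antibody and the induced protein of the induced libraries cannot be told apart, and neither can estradiol and the induced protein. Each library came from 1 g of whole seedlings, so more cells of a type and more polymerase per cell cannot be told apart either. The labels do not say whether replicates were grown separately. The p-values therefore rest on the differences among these libraries, and those may be technical.

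RNA polymerase II carries a long C-terminal repeat on its largest subunit. Serine 5 of the repeat is phosphorylated as the polymerase leaves the promoter, and serine 2 phosphorylation accumulates as it moves through the gene body. TFIIS helps a polymerase that has moved backwards on its template to cleave the transcript and resume. The number of polymerases on a gene grows with how often it is transcribed, how slowly it is traversed and how long it is, so that a ranking by reads per gene mixes the 3.

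Depth differed between libraries, from 115868 to 2537034 reads in nuclear genes, and some libraries stood apart over the members. Spearman correlations of CPM over the 300 members were 0.87 between S5P induced replicate 2 and S2P induced replicate 1, 0.81 between S5P induced replicate 2 and S2P induced replicate 3, and 0.94 between S5P induced replicate 3 and S2P induced replicate 2. Across these sets the correlations were -0.14 to 0.16, although the libraries of a set carry different antibodies. By counts, several pairs with different antibodies differed less than any 2 libraries of 1 group (chi-square per degree of freedom of 1.84 to 19.4 over genes). They were the second S5P and S2P mock replicates at 1.13, the first S5P and S2P mock replicates at 1.56, S5P induced replicate 3 with S2P induced replicate 2 at 1.60, and S5P mock replicate 1 with S2P mock replicate 2 at 1.82. This measure grows with read depth, so that low values in shallow libraries need not mean likeness. S2P mock replicates 1 and 2 had only 159951 and 192044 reads, and differed from each other at 2.08. S5P induced replicate 3 and S2P induced replicate 2 had 1341826 and 1156568 reads. In the mock groups same-numbered libraries also deviated together from their group means (correlations of 0.119, 0.189 and 0.293 for numbers 1 to 3). The 6 mock libraries therefore cannot be taken as 6 independent samples. They are described here as 3 matched sets, a matching that the labels do not state. In the induced groups the same-numbered libraries did not deviate together (-0.177, -0.473 and -0.329). The deposited files of the induced replicates numbered 3 carry the number 4 in their names. The design text names both fusion proteins without tying either to an antibody, so every comparison of S5P with S2P in induced plants rests on labels that the data do not check. Whether libraries were exchanged was not tested. S5P mock replicate 3 and S2P mock replicate 3 correlated at 0.83 with each other and at -0.20 to 0.41 with the other 4 mock libraries. The members were picked for high values, which narrows their range, so these correlations describe the ordering among high genes only. Of the 300 members, 100 had their highest value of all 12 libraries in S5P induced replicate 2, the shallowest library, and 77 had their lowest there. In S5P mock replicate 3, 64 had their highest and 30 their lowest value. S5P induced replicate 3 held the lowest value of 83 members. The shares over all genes were not computed. S5P induced replicate 2 and S2P induced replicate 3 also had 38.6% and 33.4% of aligned reads outside genes, against 16.1% to 29.4% in the other libraries. TFIIS itself had 156, 43.2 and 179 CPM in S5P induced and 58.9, 46.9 and 47.7 CPM in S5P mock libraries, and 93.9, 125 and 61.8 CPM in S2P induced and 18.8, 67.7 and 57.9 CPM in S2P mock libraries. The S5P induced replicate 2 value rested on 5 reads and the S2P mock replicate 1 value on 3 reads. With so few reads, S5P induced replicate 2 could not be told from the S5P mock libraries for the gene of the induced protein. Reads of the transgene and of the native gene were counted together. Levels per kb of RefSeq gene length were 32.4 to 147 CPM for 4 markers of green tissue (of which RCA is a member), 11.5 to 22.8 CPM for 9 root markers and 3.71 to 9.21 CPM for 8 flower and seed markers, with 13.0 to 14.1 CPM for protein-coding genes outside the members.

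**Figure D1:**
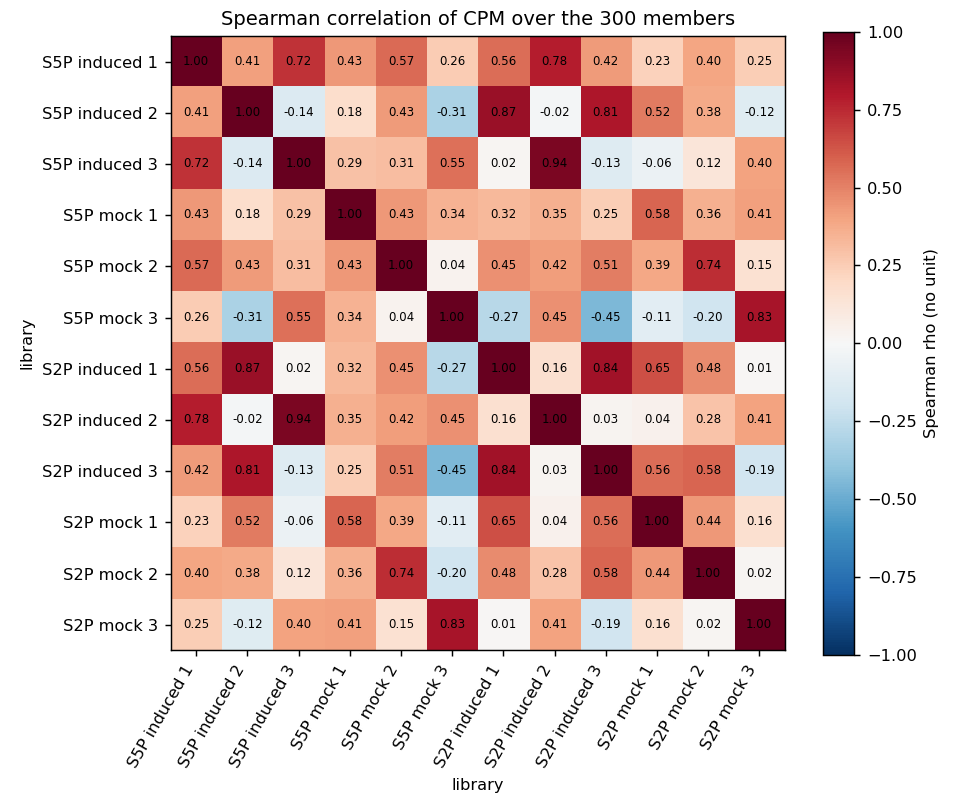
Spearman correlation of CPM over the 300 members between each pair of the 12 libraries, with libraries in rows and columns and the coefficient printed in each cell. S5P induced replicate 2 goes with S2P induced replicates 1 and 3, S5P induced replicate 3 with S2P induced replicate 2, and the third mock replicates of both antibodies with each other.

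The members were 296 protein-coding genes, 3 noncoding RNA genes and 1 transcribed pseudogene, by the RefSeq annotation of assembly TAIR10.1. Their mean mock occupancy ran from 1049.9 CPM down to 198.6 CPM, with a median of 249 CPM, against a median of 18.9 CPM for the 33023 other nuclear genes. Together they held 6.59% to 10.0% of nuclear reads in the mock libraries. Membership was graded: 75 members were among the highest 300 genes of all 6 mock libraries, and each member was among them in at least 1. For a median member the highest mock library had 2.2 times the CPM of the lowest.

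AT3G23460, a protein-coding gene without a name in the annotation, came first. Its CPM were 383, 1320.5 and 229.5 in S5P induced, 959, 1535 and 382 in S5P mock, 271, 351 and 3963 in S2P induced and 994, 2151 and 278 in S2P mock libraries. The 6 libraries of lowest depth, with up to 628487 reads, had 959 CPM or more, and the 6 deeper libraries had 383 CPM or fewer. The level of this gene thus moved with library depth, whose part in its first rank was not tested. AT1G79245, the transcribed pseudogene, came second with 729, 189.9 and 875 CPM in S5P induced, 426, 419 and 1907 CPM in S5P mock, 529, 674 and 394 CPM in S2P induced and 356, 318 and 1334 CPM in S2P mock libraries. Its mock mean was 794 ± 667 CPM (SD, n = 6 libraries in 3 matched sets, as for all mock means), with the third replicates of both antibodies far above the other 4 libraries.

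NIA2, the main nitrate reductase of the leaf, came next, with 468, 121 and 807 CPM in S5P induced and 889, 383 and 1428 CPM in S5P mock libraries. With S2P it had 339, 608 and 199.6 CPM in induced and 669, 333 and 948 CPM in mock libraries, and the groups overlapped with both antibodies. BXL1, a beta-xylosidase of the cell wall, followed at 741 ± 485 CPM, with 115 and 146 CPM in the second mock replicates of S2P and S5P and 878 to 1219 CPM in the other 4. AT1G58602 had 726 ± 169 CPM, a gene of 19695 bp whose reads per kb were only 36.9 CPM. PEN3, an ABC transporter of the plasma membrane that takes part in defence at the cell surface, had 685 ± 395 CPM, and RAP2.4, a transcription factor of the AP2 family, 677 ± 258 CPM (SD, n = 6 mock libraries each). UBQ10, a polyubiquitin gene widely used as a reference gene, had 628 ± 361 CPM.

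The other 7 of the highest 15 genes lay between 505 and 625 CPM. They were AT5G11090, the glutamate dehydrogenase gene GDH2, DIN10 of the raffinose synthase family, the noncoding RNA gene AT4G36648, the nitrilase gene NIT1, AT2G08986 and AT5G25280. AT5G11090 was the highest of all protein-coding genes per kb, at 534 CPM per kb. It had 821, 2701 and 531 CPM in S5P induced, 827, 587 and 718 CPM in S5P mock, 1558, 488 and 960.0 CPM in S2P induced and 738, 286 and 592 CPM in S2P mock libraries. DIN10, a gene induced in the dark and by sugar starvation, had 239.6, 0 and 319 CPM in S5P induced libraries against 842, 179 and 1058 CPM in S5P mock libraries. The 0 came from the shallowest library, where 3 counts would be 25.9 CPM. Its S2P values were 157, 222 and 95.0 CPM in induced and 550.2, 151 and 687 CPM in mock libraries. AT5G25280 was among the steadiest of the 15, with 237 to 809.9 CPM over all 12 libraries.

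**Figure D2:**
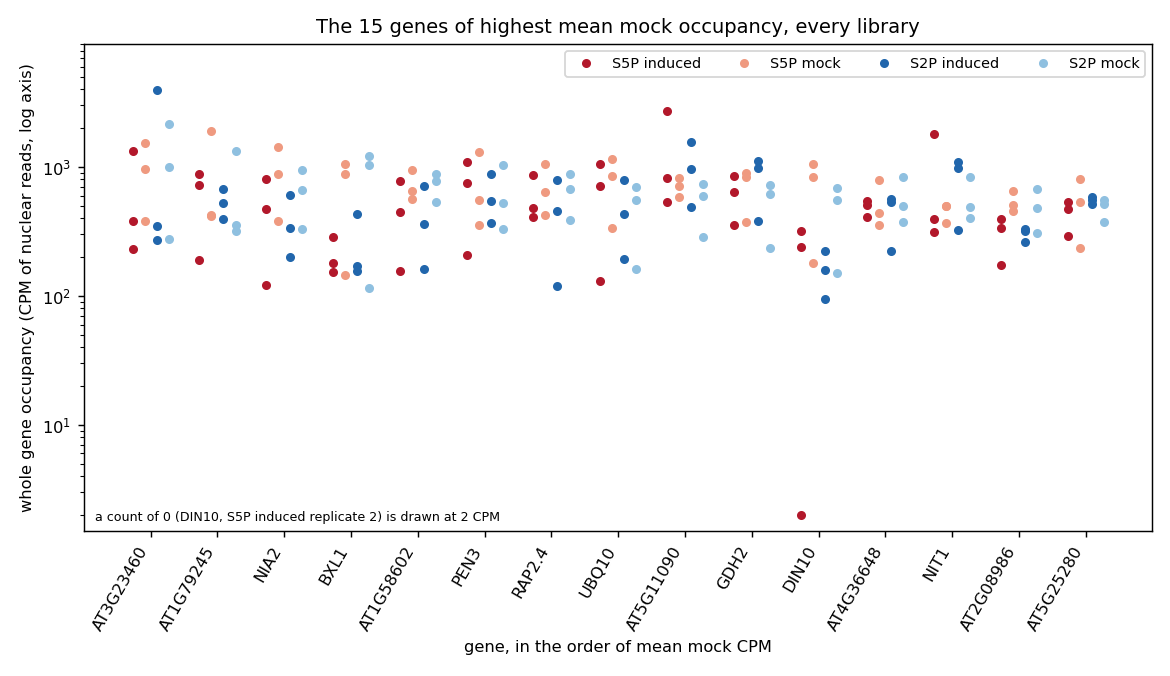
Whole-gene occupancy in CPM (log axis) of the 15 genes of highest mean mock occupancy, with a point for each of the 12 libraries and colours for the 4 groups. Most genes spread over several fold within a group, and AT3G23460 ranges from 229.5 to 3963 CPM.

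Many members were long genes. They had a median RefSeq gene length of 4231.5 bp, against 2108 bp for 26712 protein-coding genes, and 37 members (12.3%) were longer than 10 kb, against 0.453% of protein-coding genes. These lengths come from RefSeq and may differ from those of the annotation the authors counted with. Per kb the protein-coding members had a median of 61.1 CPM, against 10.5 CPM for all protein-coding genes, and none of the 296 lay below that overall median. Still, 129 of the 300 were among the highest 300 protein-coding genes per kb, 258 were in the highest 10%, and 30 had less than 2 times the overall median. ATM, the DNA damage kinase gene of 27265 bp, was the lowest member per kb, at 10.6 CPM per kb, although its whole-gene mean was 288 ± 38.4 CPM. The shortest, AT3G19030 with 497 bp, had 435 CPM per kb and a whole-gene mean of 216 CPM.

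**Figure D3:**
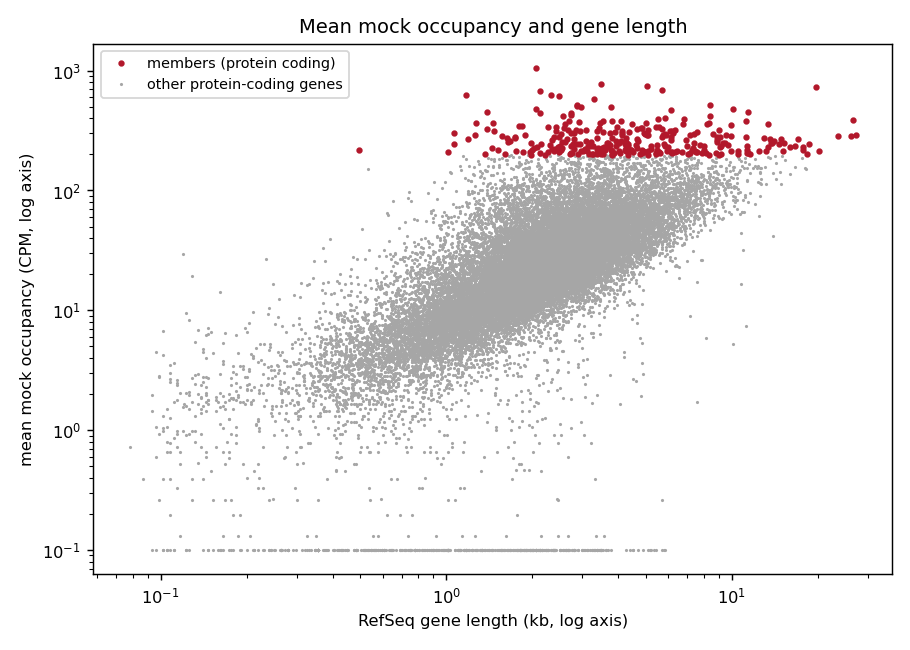
Mean mock occupancy in CPM against RefSeq gene length in kb for protein-coding genes, both on log axes, with members in red and other genes in grey (means under 0.1 CPM are drawn at 0.1). Occupancy rises with length, and the members include short genes far above the others of their length as well as genes over 10 kb that lie close to them.

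Some abundant families of short genes gave no member. None of 48 light harvesting and photosystem genes was a member, the best being LHCB2.3 at rank 702. Per kb, 7 of the 48 were among the highest 300 protein-coding genes, and 39 were within the wider cut of the highest 10%. None of 44 cytosolic ribosomal protein genes was a member either. Per kb, 2 of them were among the highest 300 and 38 in the highest 10%. Lists of 14 jasmonate and glucosinolate genes, 9 root markers and 8 flower and seed markers gave no member either. Only 300 of 33323 nuclear genes were members, and at that share lists of these sizes would hold hardly any. The absence of members from a list is therefore a description only.

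Other lists of abundant functions each gave a few members. From 30 carbon fixation and photorespiration genes these were RCA, which keeps Rubisco active, at 313 ± 170.0 CPM, and CAT3, a catalase, at 232 ± 98.9 CPM (SD, n = 6 mock libraries, as for the values that follow). From 16 translation factors they were LOS1, the elongation factor that moves the ribosome along, at 380.3 ± 52.0 CPM, and AT5G60390, an elongation factor gene, at 336 ± 94.4 CPM. HSC70-1, a cytosolic chaperone, was the single member of 20 chaperone genes at 244 ± 65.6 CPM, and UBQ10 the single member of 26 actin, tubulin and ubiquitin genes. Of 19 genes of the methionine cycle and central carbon metabolism there were 3 members: the methionine synthase gene ATMS1 at 334 ± 103 CPM, the glyceraldehyde 3-phosphate dehydrogenase gene GAPC1 at 204 ± 37.3 CPM and the enolase gene LOS2 at 204 ± 41.1 CPM.

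Of 14 membrane transport genes listed, 4 were members, with a median rank of 2461 over the list: the plasma membrane proton pumps HA1 at 470.0 ± 94.9 CPM and HA2 at 404 ± 64.5 CPM, the vacuolar pump subunit VHA-A at 364 ± 56.1 CPM and the vacuolar pyrophosphatase AVP1 at 272 ± 135 CPM. Of 8 nitrogen assimilation genes the members were both nitrate reductases, NIA2 and NIA1, the second at 498 ± 234 CPM. Of 13 cold and touch genes the members were TCH3, a calmodulin-like gene, the clock-regulated RNA-binding gene GRP7, and TCH4, a xyloglucan-modifying enzyme gene, at 322 ± 261, 315 ± 141 and 256 ± 259 CPM.

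The sets of members described next, 6 in all, were put together by function after the member names had been seen, so their make-up is a description only. An early touch and elicitor set of 15 genes held transcription factors, calcium signalling genes and zinc finger genes, such as WRKY33 and SZF1. All 15 were higher in the third mock replicate of both antibodies than in the other 4 mock libraries, against 67 of the 300 members. Their summed CPM were 2739, 2192 and 3474 in S5P induced and 2194, 2213 and 10049 in S5P mock libraries, and 2225, 2898 and 1454 in S2P induced and 1682, 1703 and 6728 in S2P mock libraries. SZF1 had 233, 60.4 and 317 CPM in S5P induced, 199, 193 and 1133 CPM in S5P mock, 159, 266 and 80.8 CPM in S2P induced and 200.1, 135 and 793 CPM in S2P mock libraries. The 4 other mock libraries thus held the set at 1682 to 2213 CPM, within the range of the induced libraries.

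A nitrogen and sugar status set of 15 genes held the nitrate reductases, the nitrate regulator NLP7, the BTB-domain genes BT1 and BT2, and the SnRK1 kinase subunits KIN10 and SNF4. It summed to 3891, 3323 and 4195 CPM in S5P induced and 7321, 3013 and 9389 CPM in S5P mock libraries. With S2P it summed to 4458, 3676 and 3868 CPM in induced and 6952, 2697 and 7266 CPM in mock libraries, so that with both antibodies the second mock replicate lay below every induced library and the other mock libraries above. BT2 had 179, 94.9 and 228 CPM in S5P induced and 619, 157 and 1000.3 CPM in S5P mock libraries, and its groups overlapped through the second mock replicate.

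A set of 11 transcription, chromatin and RNA processing genes held the largest subunits of RNA polymerases I and II, NRPA1 and NRPB1, the corepressor TPL and GTB1, the SPT6-like elongation factor. It summed to 3389, 6559 and 2971 CPM in S5P induced and 2963, 2784 and 2409 CPM in S5P mock libraries, and to 4779, 2788 and 5475 CPM in S2P induced and 3545, 2869 and 2521 CPM in S2P mock libraries. All 3 S5P induced sums lay above the S5P mock sums, while the S2P groups overlapped. The high values belonged to S5P induced replicate 2 and S2P induced replicates 1 and 3, the libraries that stood apart.

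The 14 ion pump and ABC transporter genes summed to 5230.3, 7060 and 5308 CPM in S5P induced, 4931, 4021 and 5254 CPM in S5P mock, 6245, 4586 and 5418 CPM in S2P induced and 5233, 3728 and 4994 CPM in S2P mock libraries. The 14 giant housekeeping genes, 8851 to 27265 bp long and including ATM, the growth kinase TOR and the clathrin heavy chain genes AT3G11130 and AT3G08530, summed to 2425 to 3385 CPM in S5P induced, 3267 to 3663 CPM in S5P mock, 2838 to 3288 CPM in S2P induced and 3322 to 3499 CPM in S2P mock libraries. The 8 translation, glycolysis and protein turnover genes ranged from 1692 to 4210 CPM in S5P induced and from 2073 to 3528 CPM in S5P mock libraries, and from 1730 to 3374 CPM in S2P induced and from 1614 to 2649 CPM in S2P mock libraries.

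**Figure D4:**
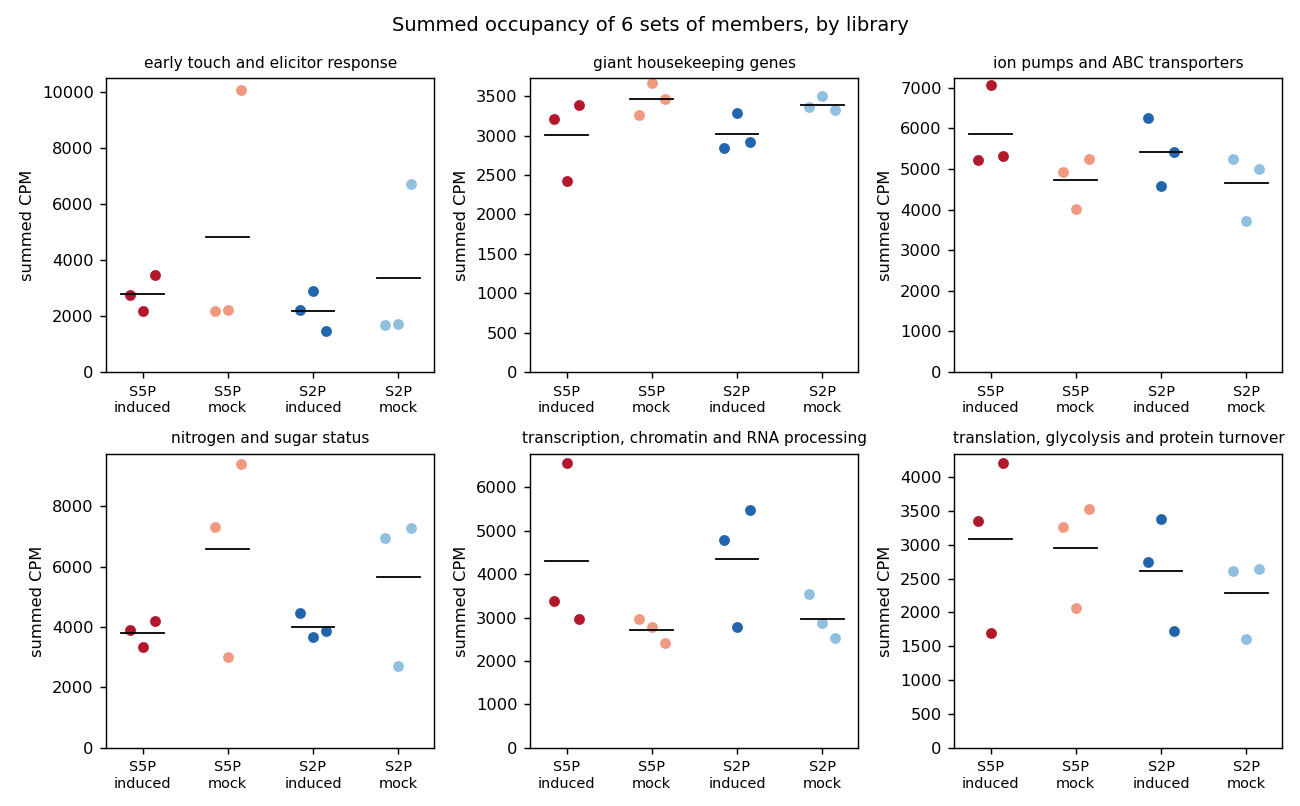
Summed CPM of 6 sets of members chosen by function, 1 panel a set, with a point for each library, replicates 1 to 3 from left to right, and a line at the mean of each group. In the early touch and elicitor panel the third mock replicates reach 10049 and 6728 CPM, against 1454 to 3474 CPM in all other libraries.

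The cut at rank 300 fell on no gap. Just inside it were SNF4 and AT1G61100 with AT5G11700, at 198.7, 198.6 and 198.6 CPM, and just outside were LARP1c, FER and AT5G48760, at 198.4, 197.9 and 197.9 CPM. The SDs over the 6 mock libraries, 40.6 to 53.0 CPM inside and 65.8 to 112 CPM outside, were far larger than these steps.

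The 300 highest genes of the S5P mock libraries alone held 255 of the members (85.0% of each list), and those of the S2P mock libraries alone held 265 (88.3%). These same libraries had chosen the members, so high overlaps are built into the choice. The S5P and S2P lists shared 220 genes (73.3%). Same-numbered mock libraries of the antibodies deviated together, so this too is a description only. In induced plants, which the choice did not use, whole-gene occupancy was compared between S5P and S2P. By edgeR's quasi-likelihood test 0 of the 300 members passed a Benjamini-Hochberg adjusted p of 0.05, and so did 0% of the 23364 genes tested. At an unadjusted p under 0.05 there was 1 member, lower with S5P, against 0.698% of all genes tested and 0.535% in that direction, and DESeq2 and limma voom also called 0 members. The median log2 difference of S5P over S2P was 0.02 for members and -0.02 for all genes tested, and leaving out single libraries moved the member median between -0.66 (without S5P induced replicate 2) and 0.16. The standard errors were wide, with a median of 0.80 on the log2 scale over the members. Differences of that size for single members, and considerably larger ones, could therefore not be told from the spread between libraries.

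The members with the smallest p in this comparison did not pass. AT1G01725 had 121, 86.3 and 70.8 CPM in S5P induced and 92.1, 127 and 1179 CPM in S2P induced libraries, a log2 difference of -2.43 ± 1.07 (SE, adjusted p above 0.99 in edgeR) that became -0.22 without S2P induced replicate 3. SKU5, a gene of cell wall growth, had 118, 43.2 and 111 CPM in S5P induced and 191, 145 and 209 CPM in S2P induced libraries, and these groups did not overlap (log2 difference -1.06 ± 0.57, SE, not called by edgeR). AT1G09980 was at -1.05 ± 0.82. In the other direction were AT4G32020 at 0.93 ± 0.85, the calcium pump gene ACA1 at 0.76 ± 0.73 and the mitochondrial carrier gene DIC2 at 0.45 ± 0.46.

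Reads were also counted in a TSS window and in the gene body, for all members but AT3G19030 (299 of 300). The TSS share is the TSS reads as a percentage of TSS and gene body reads, and how far each window reaches is not stated in the sources at hand. Summed over members the TSS share was 16.1%, 17.1% and 15.8% in S5P induced libraries and 13.4%, 14.9% and 11.8% in S2P induced libraries. In mock plants it was 13.3%, 12.4% and 15.1% with S5P and 9.56%, 10.3% and 11.2% with S2P. The S5P libraries thus lay above the S2P libraries in both states without overlap. The other genes had a higher TSS share in every library, at 23.5% to 36.1% in S5P induced, 22.3% to 24.3% in S5P mock, 23.9% to 28.9% in S2P induced and 21.3% to 23.7% in S2P mock libraries. There the ranges of the antibodies overlapped. In mock plants the S5P share of the other genes was still the higher in each same-numbered pair. It was 24.3%, 24.2% and 22.3%, against 22.4%, 23.7% and 21.3% with S2P. Members were also longer (median 4231.5 bp, against 2108 bp for protein-coding genes), and shares were not compared at equal length.

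As a median over members with 20 or more window reads, the order of the antibodies in induced plants was lost. These medians were 9.32%, 2.63% and 11.5% in S5P induced and 6.02%, 10.8% and 3.28% in S2P induced libraries, the low values again in S5P induced replicate 2 and S2P induced replicate 3. In mock plants they were 7.94%, 7.81% and 9.15% with S5P and 5.17%, 6.25% and 6.59% with S2P, without overlap. Per gene, with 20 or more window reads in each library, 4 of 205 members had all 3 S5P induced libraries above all 3 S2P induced libraries and 0 had them below, against 1.3% and 0.0866% of the 1155 genes that could be compared. In mock plants 37 of 276 members were above and 4 below, against 10.1% and 1.81% of 830 genes. Same-numbered mock libraries deviated together, and this count took no account of that.

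The balance of the windows was tested for each gene by a window-by-antibody term in edgeR with the library as a block. In induced plants 260 of the 299 members passed the filter on low counts, and 0 passed an adjusted p of 0.05, as did 0% of the 7600 genes tested (0 members at an unadjusted p under 0.05, against 1.36% of genes, 0.434% towards the TSS with S5P and 0.921% towards the gene body). Limma voom also called 0 members. TSS and gene body counts had separate scaling factors, which takes out a shift shared by all genes. The median log2 term was 0.19 for members and -0.02 for all genes, with a median standard error of 1.04 over the members. The members with the smallest p, none of which passed, were the repressor ERF4 at 1.28 ± 0.92, CYP81H1 at 1.51 ± 1.13 and the pectin synthesis gene GAUT9 at 1.72 ± 1.32 towards the TSS with S5P, and AT1G61100 at -1.18 ± 0.99, the starch breakdown gene DPE2 at -1.25 ± 1.1 and the protein kinase gene CIPK3 at -1.16 ± 1.03 towards the gene body (log2 ± SE).

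The members differed widely among themselves in where their reads lay. Longer members had lower TSS shares (Spearman correlation -0.61 over 299 members in mock libraries, as a description). The share depends on the sizes of the windows, which are not known. How far its fall with length is set by the measure itself was not tested. In the induced libraries the 37 members over 10 kb had a TSS share of 8.10% and the 30 members under 2 kb with windows had 31.2%, and in the mock libraries 4.2% and 29.9%. Among members with 200 or more window reads in the induced libraries, the highest TSS shares were those of AT3G52800 at 83.1%, PEX13, a peroxisome import gene, at 81.7%, AT1G01725 at 80.5%, AT3G19740 at 68.1% and AT1G22190 at 67.4%. The mock libraries gave 62.9%, 64.3%, 82.3%, 44.7% and 44.2% for the same genes. All these shares pool reads over libraries of unequal depth. Single induced libraries ran from 53.0% to 100% for AT3G52800 and from 45.6% to 98.9% for PEX13. For AT3G19740 they ran from 36.5% to 88.9%, and for AT1G22190 from 43.6% to 88.9%. The pooled values are therefore no measure of a change on induction. AT3G19740 is 7860 bp long, so the order of the shares is not that of length. The lowest were ATM at 0.668%, AT3G23460 at 1.19%, AGD7 at 1.32%, the myosin gene MYA2 at 1.85% and ILA at 1.90%, against 1.94%, 1.36%, 1.93%, 2.13% and 2.26% in mock libraries. AT3G23460 and AGD7 are 2058 and 2524 bp long and yet had hardly any reads at the TSS.

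By mean CPM most members stayed high in the induced libraries. Of the 300, 176 were among the highest 300 genes by mean CPM over the 6 induced libraries and 274 among the highest 1000. With S5P alone 163 and with S2P alone 177 were among the highest 300. In single induced libraries 123 to 176 members were among the highest 300 and 196 to 276 among the highest 1000. The lowest counts were those of S5P induced replicate 2. The members held 7.82%, 12.8% and 7.36% of nuclear reads in S5P induced and 8.60%, 6.91% and 10.0% in S5P mock libraries, and 11.1%, 6.95% and 10.9% in S2P induced and 10.0%, 6.59% and 9.24% in S2P mock libraries. The exact 95% binomial interval of the shallowest library, which covers counting error only, was 12.7% to 13.0%, and those of the others were narrower. The groups overlapped with both antibodies. Since the mock values chose the members, a lower rank in induced libraries is built into the choice and is no result.

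**Figure D5:**
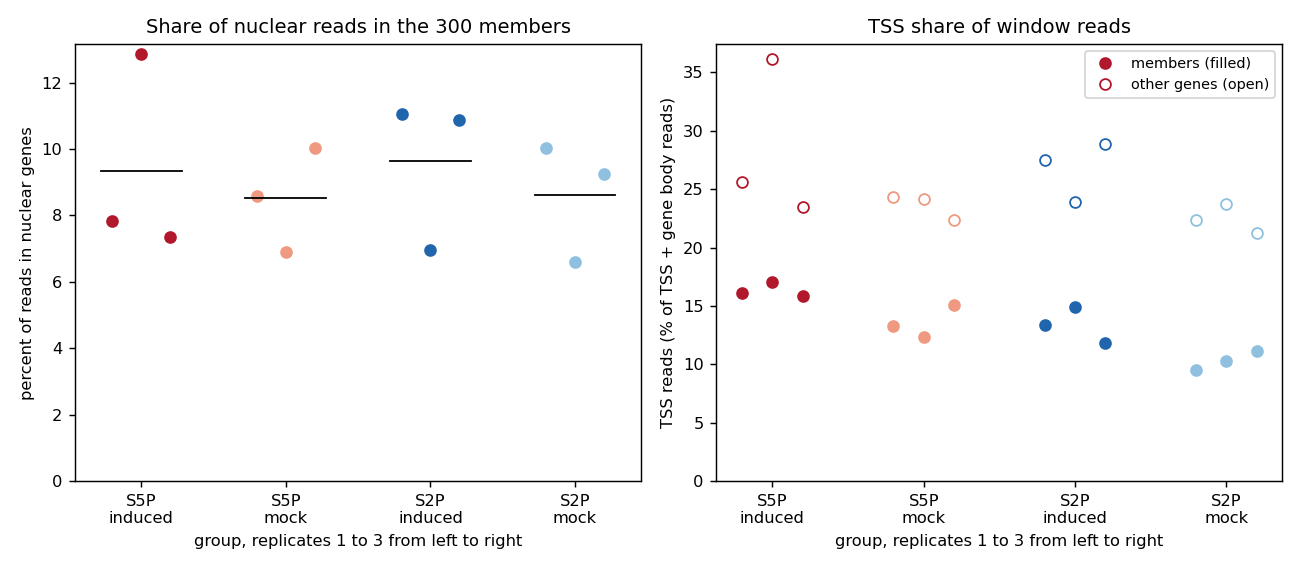
Left, percentage of nuclear reads held by the 300 members in each library, with a line at the mean of each group, and right, TSS share in percent of the members (filled) and of all other genes (open), replicates 1 to 3 from left to right. The member share overlaps between induced and mock libraries, and the members' TSS share lies below that of other genes in all 12 libraries. The members are also longer, and gene lengths were not matched.

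The TSS share of the members was higher in induced than in mock libraries without overlap, at 15.8% to 17.1% against 12.4% to 15.1% with S5P and at 11.8% to 14.9% against 9.56% to 11.2% with S2P. The same counts had chosen the members in mock plants, most of their reads being in the gene body, so this is a description. By the median over members the groups overlapped with both antibodies. For the other genes the induced libraries lay above the mock libraries without overlap with S2P, and with S5P the groups overlapped.

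Whole-gene occupancy of single members was compared between induced and mock plants for each antibody by edgeR's quasi-likelihood test, with the mock side having chosen the members. With S5P 0 of 300 members passed an adjusted p of 0.05, as did 0% of 21954 genes tested. With S2P 0 of 300 passed, against 0.016% of 18798 genes. At an unadjusted p under 0.05 there were 11 members with S5P, 5 higher and 6 lower, against 7.51% of all genes, 4.32% higher and 3.19% lower. With S2P there were 13, 6 higher and 7 lower, against 7.65% of all genes, 5.19% higher and 2.46% lower. Neither count stands above the background. DESeq2 and limma voom called 0 members with both antibodies. The median log2 fold change of members was 0.36 with S5P and 0.34 with S2P, against -0.01 and 0.04 over all genes tested, and 207 and 213 members were above 0. Without S5P induced replicate 2 the S5P median was -0.06, with 133 members above 0. It was 0.57 without S5P induced replicate 1 or 3 and 0.23 without S5P mock replicate 2. The S2P median was 0.14 without S2P induced replicate 1 or S2P mock replicate 2, 0.19 without S2P mock replicate 3 and 0.53 without S2P mock replicate 1.

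These fits also depend on single libraries. Without S5P induced replicate 2, 2 of 300 members (0.667%) passed with S5P, against 302 of 26076 genes (1.16%), a share below the background: ABCC3 at a log2 fold change of 2.22 (edgeR adjusted p = 0.0108) and NFXL1 at 1.96 (adjusted p = 0.0141). Without S2P induced replicate 2, 20 of 300 members (6.67%) passed with S2P, against 526 of 6849 genes tested (7.68%). Of the members 11 were higher (3.67%, against 6.03% of genes) and 9 lower (3%, against 1.65% of genes), and the mock side had chosen the members. They included SAG20 at 1.72 (edgeR adjusted p = 0.0233) and BT1 and BGAL1 at -2.36 and -1.85 (adjusted p = 0.0179 and 0.0377). Without any other single library 0 passed with either antibody. A test of the difference between the S5P and S2P induction effects on all 12 libraries called 0 of 300 members and 0 of 23793 genes (0 and 151 at an unadjusted p under 0.05 in edgeR). With all induced libraries above all mock libraries there were 14 members with S5P (2.25% of all genes) and 6 with S2P (2.61% of all genes), and with all below there were 16 with S5P (12.9% of all genes) and 11 with S2P (9.09% of all genes).

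The members of smallest p are given as values, since none was called. GAPC1, a cytosolic enzyme of glycolysis, had 540.4, 388 and 510.5 CPM in S5P induced and 264, 207 and 228 CPM in S5P mock libraries, and 434, 433 and 342 CPM in S2P induced and 169, 187 and 169 CPM in S2P mock libraries. Its groups did not overlap with either antibody, with log2 fold changes of 1.25 ± 0.61 with S5P (SE, adjusted p = 0.667, edgeR) and 1.4 ± 0.52 with S2P (adjusted p = 0.543). NFXL1, a zinc finger regulator of stress responses, had 725, 699 and 795 CPM in S5P induced and 221, 212 and 202 CPM in S5P mock libraries, a log2 fold change of 2.04 ± 0.69 (SE, adjusted p = 0.596, edgeR). With S2P it had 818, 662 and 318 CPM in induced and 375, 249.9 and 294 CPM in mock libraries, where the groups overlapped.

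ABCC3, a transporter of glutathione conjugates, had 941, 164 and 1201 CPM in S5P induced and 216, 234 and 293 CPM in S5P mock libraries, with S5P induced replicate 2 below all 3 mock libraries. With S2P it had 632, 822 and 247 CPM in induced and 200.1, 193 and 236 CPM in mock libraries, without overlap (log2 fold change 1.59 ± 0.62, SE, adjusted p = 0.583, edgeR). SAG20, a gene named for senescence, was at 1.59 ± 0.68 with S2P, and GTB1 and the sphingolipid lyase gene DPL1 were at 2.07 ± 0.88 and 2.04 ± 0.90 with S5P. GTB1 had 318, 1372 and 260.1 CPM in S5P induced libraries against 216, 215 and 173 CPM in S5P mock libraries, and without S5P induced replicate 2 the log2 fold change was 0.64 for GTB1 and 0.62 for DPL1.

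Lower in the induced libraries, and likewise not called, were BT1, BGAL1, TCH4 and DIC2. BT1, a BTB-domain gene that responds to nitrate and sugar, had 66.7, 8.63 and 70.1 CPM in S5P induced and 258, 63.4 and 426 CPM in S5P mock libraries, and 48.5, 80.4 and 23.8 CPM in S2P induced and 213, 88.5 and 294 CPM in S2P mock libraries. The S2P groups did not overlap (log2 fold change -1.77 ± 0.51, SE, adjusted p = 0.377, edgeR), and the S5P groups did (-2.11 ± 0.75, adjusted p = 0.608). BGAL1, a beta-galactosidase gene, had 143, 43.2 and 111 CPM in S5P induced and 463, 182 and 639 CPM in S5P mock libraries, and 126, 137 and 61.8 CPM in S2P induced and 463, 141 and 466 CPM in S2P mock libraries, without overlap with either antibody (log2 fold changes -1.92 ± 0.69 and -1.53 ± 0.58). TCH4 was at -1.81 ± 0.75 with S2P and DIC2 at -2.03 ± 0.82 with S5P, and both belong to the touch and elicitor set. Without the third mock replicate they were at -0.70 with S2P and -0.55 with S5P.

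In the sets of members described above 0 genes were called. Of the 11 transcription, chromatin and RNA processing genes 11 had a fold change above 0 with S5P and 11 with S2P, with medians of 0.91 and 0.81 on the log2 scale, beside 207 and 213 of all 300 members. Of the 15 touch and elicitor genes 2 were above 0 with each antibody (medians -0.81 with S5P and -0.79 with S2P), and of the 15 nitrogen and sugar genes 4 were (medians -0.73 with S5P and -0.63 with S2P). Above 0 with S5P and S2P were 10 and 11 of the 14 ion pump and ABC transporter genes (medians 0.26 and 0.29), 6 and 4 of the 14 giant housekeeping genes (-0.04 and -0.08), and 5 and 6 of the 8 translation, glycolysis and protein turnover genes (0.10 and 0.18). The sets were made with the member names known and their genes are not independent, so no test was made on them.

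The balance of TSS and gene body between induced and mock plants could be tested for 236 members with S5P and 185 with S2P, the others falling below the filter in a window. In edgeR 0 members passed an adjusted p of 0.05 with either antibody, as did 0% of 5066 and 0% of 2600 genes tested with S5P and S2P. At an unadjusted p under 0.05 there was 1 member with S5P, towards the gene body, against 1.52% of genes (0.296% towards the TSS and 1.22% towards the gene body), and 1 with S2P, towards the TSS, against 1.15% of genes (0.654% towards the TSS and 0.5% towards the gene body). BIG, a very long gene that acts in auxin transport, had the smallest p with S2P, at a log2 term of 2.23 ± 0.83 towards the TSS (SE, adjusted p = 0.998, edgeR). With S5P the smallest p was that of AT1G01725, at -1.98 ± 0.81, followed by NRPB1 at -1.35 ± 0.67, both towards the gene body, and AT3G49140 was at -1.22 ± 0.72. The ubiquitin ligase gene UPL2, the spliceosome gene SUS2 and the histone acetyltransferase gene HAC1 were at 1.19 ± 0.67, 1.2 ± 0.78 and 1.29 ± 0.88 towards the TSS with S5P. With S2P AT1G61100 and BZIP60, a transcription factor of endoplasmic reticulum stress, were at 1.38 ± 0.80 and 1.65 ± 1.04 towards the TSS, and GTL1, AT4G36850 and HMGB3 at -1.57 ± 0.91, -1.33 ± 0.93 and -1.36 ± 0.96 towards the gene body.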

How the data were processed

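The authors deposited, per library, whole-number read counts per gene over the whole gene (TSS to TES), a TSS window and the gene body. Per the submitters' processing notes, Trimmomatic, HTSeq and TAIR10 were used, with no versions. No source used here gives the aligner or the window bounds. Not aligned, in the deposited counts, were 74.7% to 96.7% of reads. These summary lines and 279 organelle genes were left out.

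From the counts, CPM, members, shares and TSS shares were computed in Python 3.11.15 with pandas 2.3.3. Tests used edgeR 4.0.16 (R 4.3.3): TMM scaling, genes kept by filterByExpr (minimum count 10), quasi-likelihood F tests and Benjamini-Hochberg adjustment at 0.05 over all genes tested. Standard errors are the log2 fold change divided by the square root of F. Window balance was the window-by-group term with the library as a block and each window scaled on its own. DESeq2 1.42.0 and limma 3.58.1 were alternatives. The scripts were tested on simulated counts. A floor of 3 counts was 1.18 to 25.9 CPM. Libraries had 115868 to 2537034 nuclear reads. Replicates differed by 1.84 to 19.4 times counting error (chi-square per degree of freedom), and 0 pairs had identical counts, so all were kept.

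The members and the lists were chosen with earlier results of these data known. Genes named are the 15 highest members, up to 4 members of each list, the 3 members a direction with the smallest p in each test (said not to pass), 3 on each side of rank 300, the 5 highest and 5 lowest TSS shares in induced libraries among members with 200 or more window reads, and TFIIS. SZF1, BT2 and the other genes named only as examples of a set were chosen after their values were seen. Names, biotypes and lengths come from RefSeq, assembly TAIR10.1, where all 300 members and 32835 nuclear genes matched.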

Additional observations from a re-analysis of the deposited data

How the results depend on the processing

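Of the 300 members, 296 stayed under TMM factors, 269 from gene body counts, 266 by the median of the mock libraries, 265 and 255 from S2P or S5P mock libraries alone, 238 from pooled counts and 270 to 288 without 1 mock library. Per kb of RefSeq gene length, an alternative chosen after seeing the data like the interaction test, 129 stayed. Counts per coding length were not run. For S2P induced against mock, the 3 genes called among all genes became 0 with RLE size factors, 72 with no filter, 1 with limma voom, 42 with DESeq2, 0 with the replicate block and 0 to 526 when leaving out 1 library. For S5P the 0 genes became 28 with no filter, 92 with DESeq2, 32 in the fit on all 12 libraries and 0 to 302 when leaving out 1 library. Members called ranged from 0 to 20 with S2P and from 0 to 2 with S5P when leaving out 1 library, and were 0 under every other alternative. Leaving out 1 library gave 0 to 2 genes for the S2P balance and 0 to 2 for the balance of S5P against S2P. Median log2 values of the members turned over in S5P against S2P for the whole gene with the replicate block (-0.20) and ranged without 1 library from -0.66 to 0.16. For the S2P balance the median was -0.064 with RLE and -0.010 with limma voom and ranged without 1 library from -0.68 to 0.37. For the S5P balance it was 0.028 with no filter and -0.59 to 0.26 without 1 library, for the balance of S5P against S2P -0.13 to 0.64, for S5P whole genes -0.056 to 0.57, and for S2P whole genes 0.14 to 0.53. The cause was not tested. The TSS share as a median over members was 7.82% in S5P induced, 8.30% in S5P mock, 6.71% in S2P induced and 6.0% in S2P mock libraries, so that the order of S5P induced and S5P mock turned. The members' share of reads moved by less than 1 SD with organelle genes kept or with 300 genes chosen on the other antibody, as did the TSS share without the 15 highest members. With S2P the replicate numbers did not pair the induced and mock libraries (correlations of deviations for numbers 1 to 3 of 0.057, -0.116 and -0.186). With S5P numbers 2 and 3 deviated together (0.162 and 0.293) and number 1 did not (0.007). The replicate block called 0 members with either antibody. For 39 fold changes (the members of smallest p in each test, and TFIIS), all 399 alternative values kept their direction. These members were picked by p in the main fits, and the alternatives reused the same libraries. Their kept direction was thus largely fixed by the choice and is no sign of a robust effect. Of the 399 values, 5 passed the threshold, each without S2P induced replicate 2 or S5P induced replicate 2. Other genes named in the text, such as GTB1, DPL1, GRP7, PEX13, NLP7 and DIN10, also passed with S2P without S2P induced replicate 2. Depth limits S5P induced replicate 2, where 247 of 300 members had 10 or more reads.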
